A study of Brassica juncea with 21 samples.

Results

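The end of nectar secretion in median floral nectaries of Brassica juncea, a mustard, was followed by RNA sequencing. Post-secretory median nectaries, collected 12 h after the secretory stage, were set against secretory median nectaries, collected from fully open flowers 4 to 8 h after dawn. Each stage had 3 libraries, so 6 of the 21 libraries of the series enter the comparison. The other 15 libraries, 3 per group, were made from pre-secretory median nectaries (24 h ahead of anthesis), from lateral nectaries at the same stages and from leaf. All plants were of the same species with no strain, mutation or treatment named, and they were about 40 days old when the nectaries were cut by hand from flowers of the primary inflorescence. About 100 nectaries, at most 4 from a flower, made up 1 RNA sample, so every nectary library pools many flowers. Each replicate drew on its own plants. Dissection is described as running over several days from 4 to 8 h after dawn, while the post-secretory stage is placed 12 h after the secretory one. The hour at which post-secretory nectaries were collected is therefore not settled. If it differed from that of the secretory stage, stage and hour of the day cannot be told apart in this comparison.

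Floral nectaries are small glands that offer pollinators a sugar solution. In Arabidopsis, from which the gene roles below are known unless stated, the YABBY factor CRABS CLAW is needed to form the gland, the carrier SWEET9 exports sucrose, and the cell wall invertase CWINV4 splits it outside the cell, which draws water and more sugar outward. In the mustard family the lateral glands, at the base of the short stamens, make most of the nectar and the median glands little. Once a flower has been open for a while its organs age, a programmed process in which chlorophyll, protein and RNA are taken apart and their nutrients leave the tissue, and the organs are then shed.

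The deposited table gives 1 normalized value per group and transcript, with no value per library, so the spread of replicates is unknown and no difference below was tested. Of 14398 Brassica rapa transcripts to which the reads were matched, 14390 that reached a value of 1 in 3 or more of the 7 groups were compared. Differences are log2(value + 1) in post-secretory minus secretory median nectaries, folds are ratios of value + 1, and "higher" or "lower" is used where the fold is at least 2. The sources used here do not say whether values account for transcript length, so differences are taken between stages of the same transcript. Rankings by value, list sums and shares of a column set transcripts beside each other, and they carry this limit. The post-secretory column summed to 7779055 and the secretory one to 11197495, with 75th percentiles of 482 and 505. Depth per library is unknown. Brassica juncea carries 2 related genomes, and copies that match 1 Brassica rapa transcript were not separated. Fewer cells of a type and less RNA per cell cannot be told apart in such pooled tissue.

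Of the 14390 transcripts, 2516 (17.5%) were higher and 2161 (15%) were lower in post-secretory nectaries, and 9713 (67.5%) lay within 2-fold. The median difference was -0.05 and the differences ran from -5.87 to 9.03. Large increases outnumbered large decreases. At least 4-fold higher were 1084 transcripts (7.53%), against 553 (3.84%) at least 4-fold lower, and at least 16-fold higher were 278 (1.93%), against 25 (0.174%) at least 16-fold lower. The direction went with the level. Among 341 transcripts with a value of 5000 or more at 1 of the 2 stages, 51% were lower and 25.5% higher, with a median of -1.02, whereas among 2494 transcripts that stayed below 50 at both stages 10.1% were lower and 20.2% higher. Scaling matters for this balance. Higher transcripts made up 53.8% of all those past 2-fold as deposited, but 79.2% (4048 higher and 1063 lower) when all columns were scaled to the same total, which moved the median of all transcripts up by 0.51. A single transcript, LOC103828338, annotated as an F-box/kelch-repeat protein, held 0.967% of the post-secretory column and 13.2% of the secretory one. With it left out of the totals the share was 71.1% (3324 higher and 1350 lower).

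**Figure D1:**
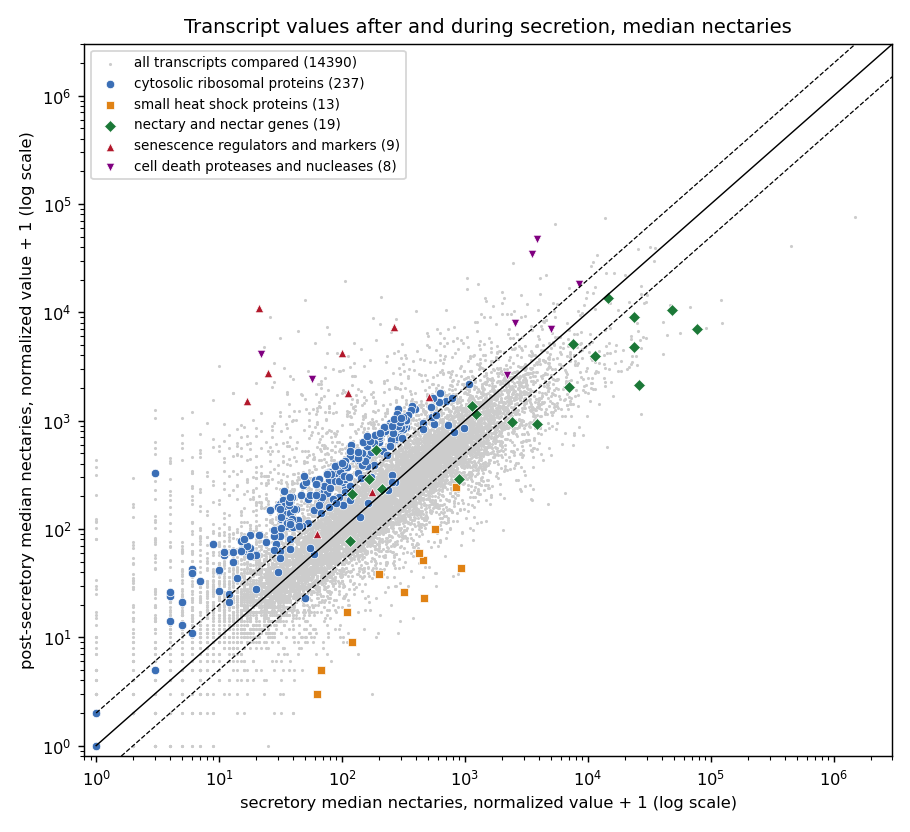
Normalized value + 1 of each transcript in post-secretory (vertical axis) and secretory (horizontal axis) median nectaries, both on log scales, with 5 gene lists in colour; the solid line marks equal values and the dashed lines 2-fold. The 13 small heat shock proteins lie below the lower dashed line, and 209 of 237 cytosolic ribosomal proteins lie on or above the upper one.

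Many genes that mark the nectary and make nectar were lower after secretion. Of 19 measured transcripts for known nectary and nectar genes, 10 were lower and 1 was higher, with a median difference of -1.30, against 8 lower and 3 higher with columns scaled to the same total (median -0.78). Their summed value was 64165 in post-secretory and 250989 in secretory nectaries. CRC, the gland identity factor, had 10577 in post-secretory nectaries and 48454 in secretory ones (-2.20). CWINV4 had 7021 after secretion and 77852 during it, 11.1-fold lower. Both stood below their pre-secretory values of 58387 and 40741 too. In leaf the pair had 92 and 67, so the labelled gland tissue holds its defining marker at every stage. SWEET9 behaved otherwise. Its main transcript had 1367 before, 23865 during and 8959 after secretion (-1.41), so that it remained well above the pre-secretory value, and a second SWEET9 transcript had 77 after and 115 during secretion (-0.57). Scaled to the same total or by quantiles, the main SWEET9 transcript was within 2-fold (-0.89 and -0.82). PIN6, an auxin carrier of the endoplasmic reticulum whose level in Arabidopsis goes with nectar amount, had 2138 after secretion and 26085 during it, 12.2-fold lower. The petal and stamen factors MYB21 (3927 and 286 after secretion, 11381 and 892 during it, in 2 transcripts) and MYB57 (2041 after, 6976 during) were lower in all 3 transcripts. Jasmonate methyltransferase, JMT, was lower in 1 of 3 transcripts (4803 after, 23845 during), while the others had 13619 after and 14678 during, and 5047 after and 7548 during. Sucrose-phosphate synthase, which makes the sucrose for export, was lower for both SPS1F transcripts (928 after and 3833 during for LOC103851339; 978 after and 2414 during for LOC103845691). SPS2F was the only listed gene that was higher, with 535 after and 189 during secretion.

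**Figure D2:**
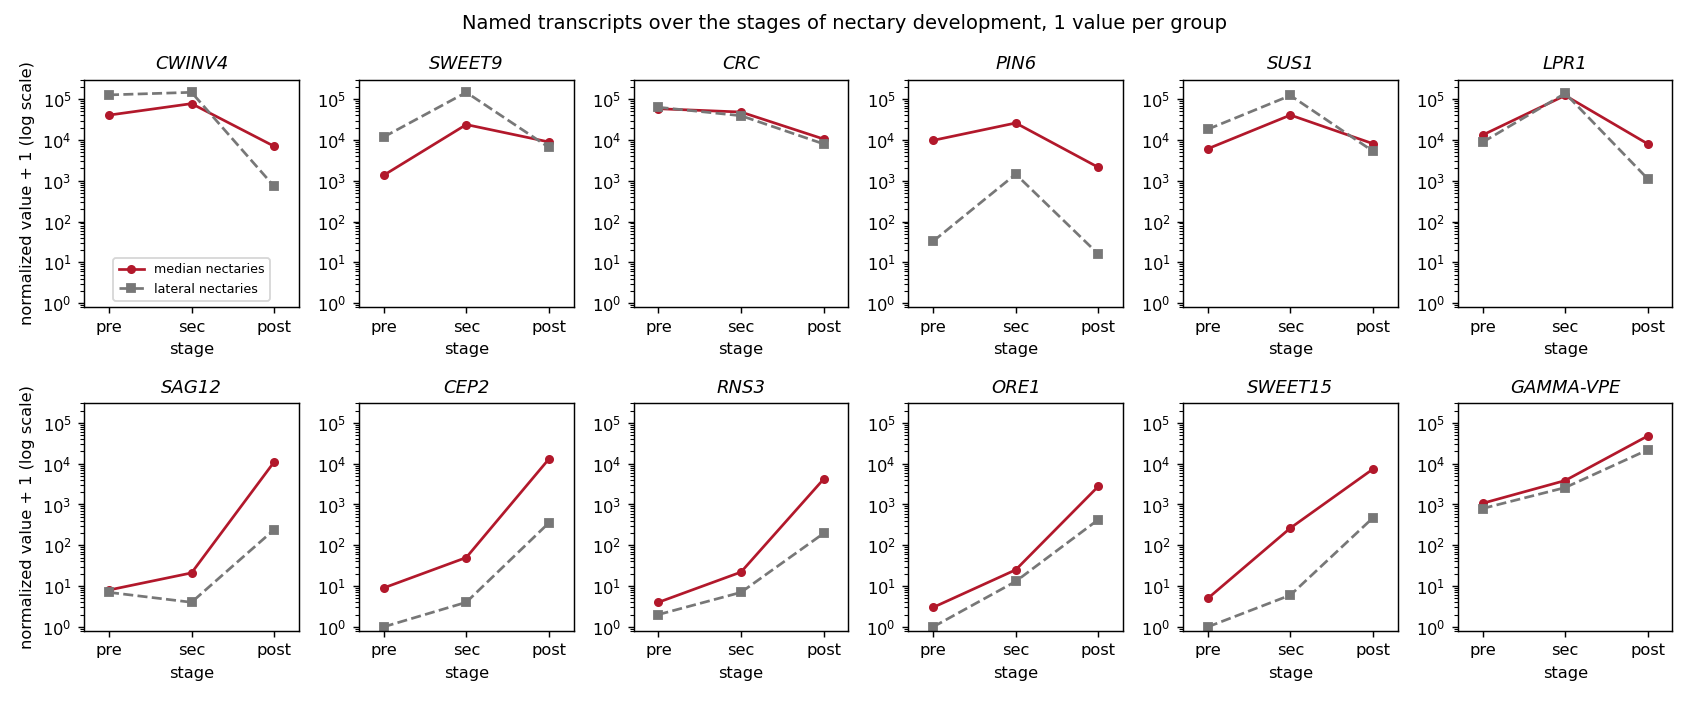
Normalized value + 1 (log scale) of 12 named transcripts before, during and after secretion in median (solid) and lateral (dashed) nectaries, 1 pooled value per point. The 6 genes of the upper row are lower and the 6 of the lower row higher after secretion in both nectary types.

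Sugar carriers went in both directions. Among 19 sugar transporter transcripts 5 (26.3%) were higher and 4 (21.1%) lower (median 0.10), beside 17.5% and 15% of all transcripts. With columns scaled to the same total 8 were higher and 3 lower. The sums of the 19 were 49011 in post-secretory and 44820 in secretory nectaries. Of these sums, a SWEET1 transcript that stayed within 2-fold held 23134 and 16200. The higher ones were 2 transcripts of SWEET15, the senescence-associated sucrose carrier also called SAG29, with 7387 and 1786 after secretion and 264 and 111 during it, together with ESL1 (3404 after, 125 during), the hexose importer STP1 (1291 after, 57 during) and the vacuolar carrier TMT2 (173 after, 35 during). Lower were the main SWEET9 transcript, 2 SWEET5 transcripts (84 and 180 after, 256 and 734 during) and SWEET10 (11 after, 151 during). Sucrose cleavage was lower for several members. SUS1, a sucrose synthase, had 8116 and 2489 after secretion and 40835 and 13630 during it in its 2 transcripts, and CWINV3 had 299 after and 1367 during. The summed value of the 9 invertase and sucrose synthase transcripts was 18907 after and 134432 during secretion, with 4 lower and 3 higher (median -0.80). SUS3 had 207 after secretion and was listed at 0 during it. Vacuolar invertase VI2 had 188 after and 41 during.

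Starch genes went both ways, beside 17.5% higher and 15% lower of all transcripts. Of 10 for starch synthesis 2 (20%) were higher and 4 (40%) lower (median -0.29, and 0.20 with columns scaled to the same total). The branching enzyme SBE2 had 592 after and 2115 during secretion, and the granule-bound synthase GBSS1 378 after and 1198 during. The small ADP-glucose pyrophosphorylase subunit APS1 was lower in its main transcript (915 after, 2926 during) and higher in a minor one (500 after, 201 during). Of 13 for starch breakdown, 3 (23.1%) were higher and 2 (15.4%) lower (median 0.30), near the shares of all transcripts. The starch breakdown transcript with the largest mean value, the beta-amylase BAM1, had 10749 after and 11475 during. Hexokinase HXK1, a sugar sensor, had 2515 after and 8841 during secretion. In the list of starvation and energy genes 6 of 20 (30%) were higher and 1 (5%) lower (median 0.27). Among the higher were 1 of 2 transcripts of BZIP11, a factor controlled by sucrose (1874 after, 141 during), the dark-inducible DIN1 (502 after, 75 during) and the trehalose-phosphate synthase family member TPS11 (2479 after, 1022 during).

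Most of the highest values of the secretory column were much lower afterwards. The 10 transcripts with the highest values at that stage, chosen for that level, were all lower after secretion as deposited. LOC103828338 had 75236 after and 1477508 during secretion, against 22865 before it, 19.6-fold lower, and it remained the highest value at both stages, so that quantile normalization set its difference to 0. A germin-like protein (LOC103830683), of a family of extracellular cupin proteins, had 41360 after and 447820 during. The multicopper oxidase LPR1 (LOC103840803) had 8044 after and 123346 during, and a GDSL-type esterase/lipase (LOC103834690) had 7101 after and 91183 during. The 4-coumarate-CoA ligase-like LOC103835792, matched to both OPCL1 of jasmonate synthesis and AT5G38120, had 13104 after and 121755 during. Peroxiredoxin-2B (LOC103852305), which reduces peroxides, had 6481 after and 56356 during. Cytosolic glyceraldehyde-3-phosphate dehydrogenase (LOC103836104), of glycolysis, had 11098 after and 67987 during. CWINV4, CRC and the plasma membrane proton pump AHA1 (11633 after, 46611 during) complete the 10. Germin-like proteins as a family had 3 of 5 members lower and none higher, with sums of 42686 after and 459510 during secretion.

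Genes of organ ageing had the highest median of the gene lists. Of 9 measured transcripts for senescence regulators and markers 7 were higher and none lower, with a median of 4.80, and their summed values were 340 before, 1275 during and 30669 after secretion. SAG12, a cysteine protease that is the classic marker of leaf senescence, had 10991 after and 20 during secretion, 523-fold higher and the largest difference in the comparison among transcripts with values at both stages. ORE1, the NAC factor that drives age-dependent senescence, had 2773 after and 24 during. NAP, a NAC factor that acts on abscisic acid and SAG113, had 1522 after and 16 during. VNI2, a NAC factor that delays leaf senescence, had 4239 after and 98 during. The other higher members were ORS1, a NAC factor close to ORE1 (1666 after, 508 during), and the SWEET15 pair. SAG101 (88 after, 61 during) and NAC016 (217 after, 173 during) were within 2-fold.

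The enzymes that digest protein and RNA were higher as well. Of 8 transcripts for cell death proteases and nucleases 6 were higher and none lower (median 2.47), and their sum was 124721 after and 25667 during secretion. Gamma-VPE, a vacuolar processing enzyme with caspase-like activity, had 47735 after and 3861 during. CEP1, an endopeptidase with a KDEL tail that takes part in tapetal and epidermal cell death, had 34470 after and 3501 during, and before secretion 22. Its relative CEP2 (LOC103873155) had 12952 after and 49 during. The ribonucleases RNS3 (4159 after, 21 during) and RNS1 (2410 after, 56 during) were 189-fold and 42.3-fold higher, while RNS2 had 2611 after and 2185 during. RD19, a papain-like protease, was higher in 1 of 2 transcripts (7940 after, 2554 during) and had 7082 after and 5031 during in the other.

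In the wider family of cysteine and aspartic proteases 22 of 49 transcripts were higher and 8 lower (median 0.87). Their share of the column was 3.11% after secretion and 0.66% during it. The largest value after secretion belonged to LOC103827997, annotated as RD21a and matched to AT5G43060, with 65789 after and 5392 during. The aspartic proteases LOC103850303 (19283 after, 104 during) and LOC103839838 (631 after, 2 during) were 184-fold and 211-fold higher. Proteasome subunits, which degrade ubiquitin-tagged protein, did not share this. Of 81 transcripts 3 were higher and 3 lower, with a median of -0.40 that became 0.12 with columns scaled to the same total.

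Autophagy genes, which carry cytoplasm to the vacuole, were higher for 7 of 23 transcripts and lower for 1 (median 0.74). ATG7, the enzyme that activates ATG8 and ATG12, had 3710 after and 430 during secretion. The lipid-linked ATG8 members ATG8E (2629 after, 436 during) and ATG8H (828 after, 133 during) were higher, while ATG8F had 2305 after and 1930 during. The cargo receptor NBR1 was lower in 1 of 2 transcripts (4316 after, 10172 during), and that difference was -0.71 with columns scaled to the same total. Scaled that way, 14 of the 23 were higher and none lower. For nitrogen export, cytosolic glutamine synthetase was higher for 1 GLN1;1 transcript (4543 after, 142 during) and for GLN1;4 (4016 after, 1177 during), while the other GLN1;1 transcript had 5920 after and 5405 during. Catalases CAT3 (10252 after, 399 during) and CAT1 (33484 after, 11946 during) were higher. The plastid copper-zinc superoxide dismutase CSD2 was lower (1843 after, 9537 during). In peroxisomal fat breakdown 2 of 11 were higher and 3 lower (median 0.51), and the balance turned with columns scaled to the same total, where 6 were higher and none lower (median 1.04). The bifunctional protein MFP2 had 4365 after and 1889 during, and the 2 AIM1 transcripts 2905 and 3370 after and 6513 and 8346 during.

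Chlorophyll breakdown and photosynthesis went opposite ways. Of 9 chlorophyll breakdown transcripts 6 were higher and none lower (median 1.79). STAY-GREEN 1, also called NYE1, which takes magnesium from chlorophyll a, had 1221 and 3165 after secretion and 40 and 150 during it in its 2 transcripts. Pheophytinase PPH had 1021 after and 250 during, the chlorophyll b reductase NYC1 882 after and 254 during in 1 of 2 transcripts, pheophorbide oxygenase PAO 3724 after and 1789 during, and MES16, which demethylates the breakdown products, 762 after and 85 during. RCCR, the reductase that follows PAO (128 after, 112 during), and SGRL, a STAY-GREEN relative (169 after, 256 during), were within 2-fold.

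Of 79 photosynthesis transcripts 34 were lower and none higher (median -0.90), and the sums were 159835 after and 319589 during secretion. This count rests on the scaling, since 9 were lower and 3 higher with columns scaled to the same total (median -0.37). Among the largest differences was the ferredoxin-NADP reductase FNR2, with 488 after and 2776 during. The carbonic anhydrase BCA2 had 769 after and 3952 during, plastocyanin PETE1 141 after and 578 during, and SHM1 of photorespiration 1596 after and 6454 during. The Rubisco small subunit RBCS1B had 14441 after and 30257 during secretion (-1.07), and -0.54 with columns scaled to the same total.

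**Figure D3:**
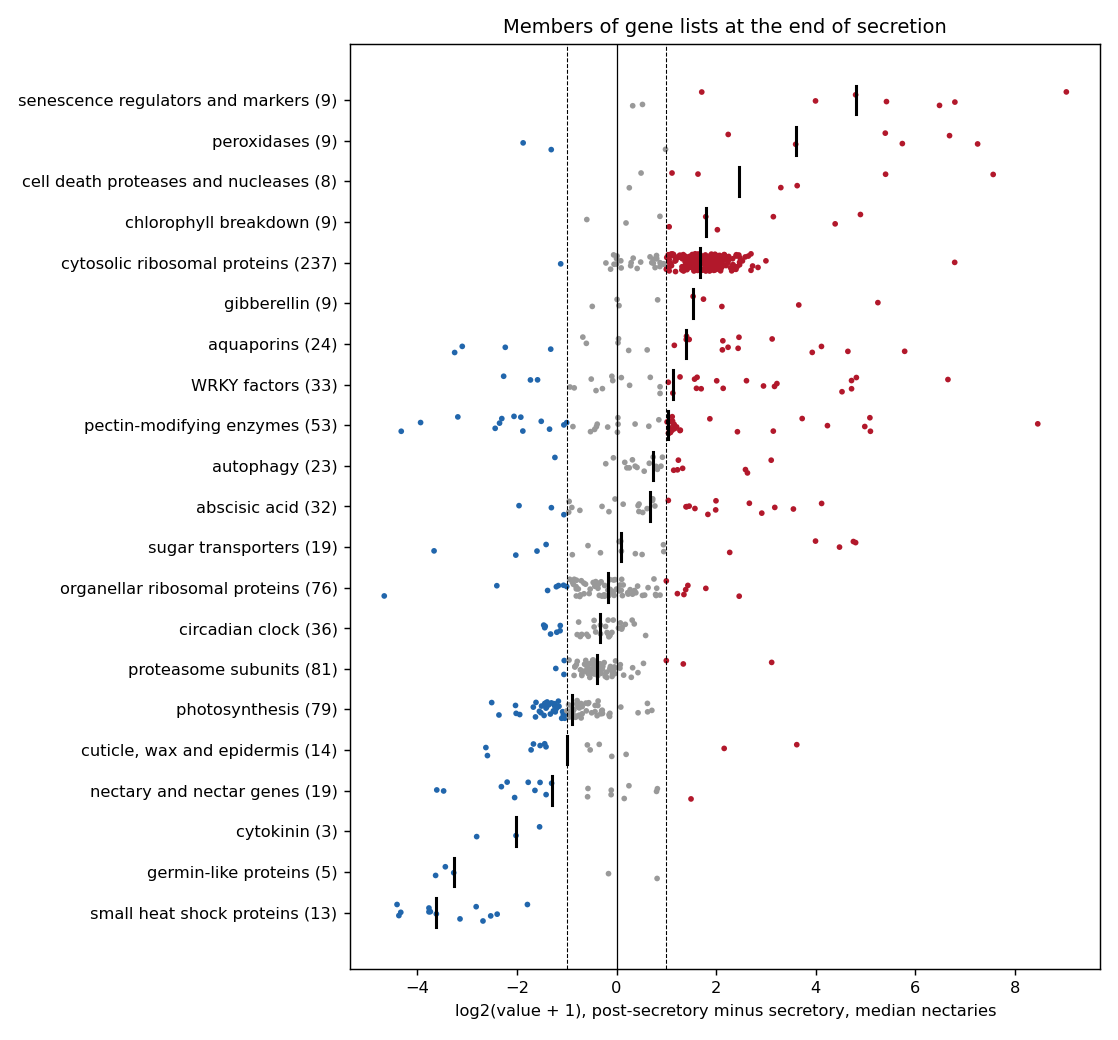
Post-secretory minus secretory log2(value + 1) in median nectaries for each member of 21 gene lists (number of members in brackets; vertical jitter has no meaning). Red points are at least 2-fold higher, blue at least 2-fold lower, grey within 2-fold, and black bars are list medians, from 4.80 for senescence genes to -3.62 for small heat shock proteins.

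Cytosolic ribosomal proteins were higher nearly as a block. Of 237 transcripts 209 (88.2%) were higher and 1 was lower, with a median of 1.68, while 17.5% of all transcripts were higher. Under other scalings the higher ones numbered 195 with quantiles and 222 with equal totals. The secretory stage was the low point of the 3. Their sum was 190641 before, 33844 during and 94078 after secretion, or 2.27%, 0.302% and 1.21% of the columns. Of the 237, 227 had their lowest value during secretion. That count reuses the secretory values of the comparison, so it is a description and not separate support. Examples are 60S L10-3 (LOC103831514) with 3078 before, 1070 during and 2201 after, 60S L35a-1 (LOC103831899) with 430, 33 and 225, and 60S L23 (LOC103848919) with 199, 8 and 71. The largest difference, LOC103871119 (331 after, 2 during), is annotated as L18a-like, a name also given to proteins that are not part of the ribosome. Ribosomal proteins of plastids and mitochondria did not follow, with 7 of 76 higher and 7 lower (median -0.16, and 0.36 with columns scaled to the same total) and sums of 9674 after and 11618 during secretion.

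Small heat shock proteins, ATP-independent chaperones that hold unfolding proteins, were lower without exception. All 13 were lower, also with same-total scaling and with quantiles, with differences from -4.41 to -1.79 and a median of -3.62. For 12 of 13 the secretory stage was the highest of the 3, a count that again reuses the secretory values of the comparison. The sums of the 13 were 1507 before, 4624 during and 612 after secretion. Mitochondrial HSP23.6 was listed at 0 before, had 932 during and 43 after, and a class I member, HSP17.6C (LOC103851557), was listed at 0 before, had 462 during and 22 after. HSFA2, the heat stress factor that activates them, had 27 after and 318 during secretion. HSP101, which dissolves aggregates, had 141 after and 388 during. The constitutive HSP70 gene HSC70-1 was higher in all 3 transcripts, with 11959 after and 3224 during in the largest. Across all large chaperones (HSP70, HSP90, HSP101 and DnaJ proteins) 6 of 54 were higher and 8 lower, against 9 higher and 4 lower with columns scaled to the same total. Temperature is stated only as the growth setting of 21 °C, and its part in these values was not tested.

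**Figure D4:**
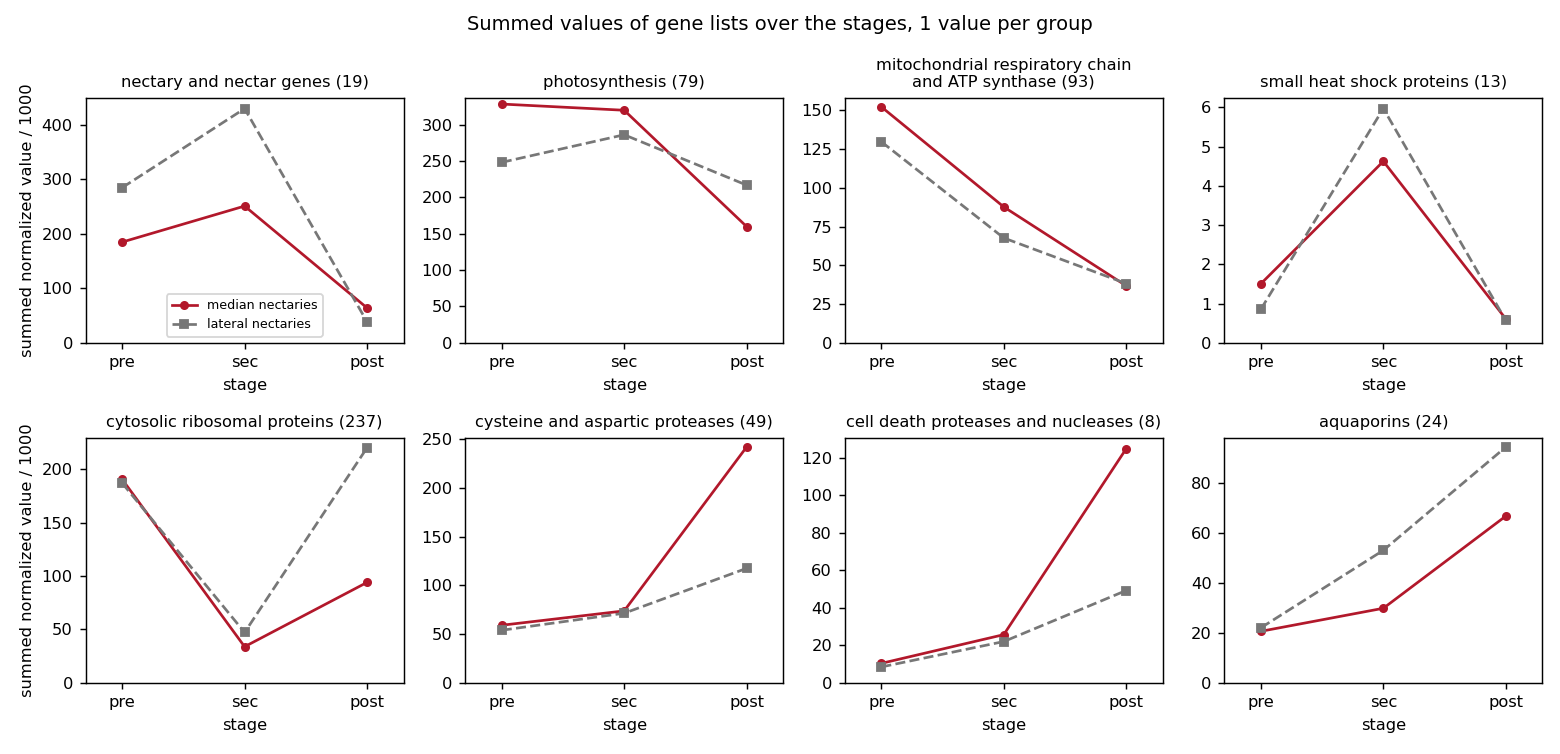
Summed normalized values (divided by 1000, axes from 0) of 8 gene lists before, during and after secretion in median (solid) and lateral (dashed) nectaries, 1 pooled value per point, where the mitochondrial list was chosen after its values were seen. Cytosolic ribosomal proteins are lowest and small heat shock proteins highest at the secretory stage, and both protease lists are highest after secretion.

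The jasmonate list of 32 had 7 members higher and 8 lower (median -0.05), against 12 higher and 6 lower with columns scaled to the same total (median 0.47). The summed value of the list was 67680 after and 212636 during secretion. Of these sums, the single transcript matched to OPCL1 held 13104 after and 121755 during. LOX2, the plastid lipoxygenase that opens the pathway, had its peak before secretion and was lower still after it, with 42550, 3524 and 185 at the 3 stages for LOC103830993 and 3265, 300 and 26 for LOC103830390. The vegetative storage protein VSP1, a response marker, had 9 after and 100 during. The repressor JAZ9 was lower in both transcripts (952 and 192 after, 4696 and 455 during), and JAZ5 was higher (607 after, 238 during). MYC2, the central factor of the response, had 1141 after and 434 during, and IAR3, which splits amino acid conjugates of jasmonate and auxin, 5297 after and 1636 during.

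For ethylene, 3 of 20 transcripts were higher and 3 lower (median 0.44), against 10 higher and 2 lower with columns scaled to the same total (median 0.96). The deposited counts are 15% each way, beside 17.5% higher and 15% lower of all transcripts. As deposited, 2 ethylene-forming ACC oxidases went opposite ways. ACO4 had 2848 after and 93 during secretion, while ACO1 had 385 after and 2543 during. EBF2, which targets the ethylene factor EIN3 for degradation, was higher in 1 of 2 transcripts (1450 after, 563 during). Abscisic acid genes were higher for 13 of 32 and lower for 3 (median 0.67). NCED3, of the committing step of abscisic acid synthesis, had 520 after and 29 during. The response genes RD26 (2687 after, 296 during), ATHB7 (1547 after, 131 during) and ERD10 (14622 after, 4098 during) were higher, and so was SNRK2.3, a kinase of the pathway (2159 after, 540 during). Receptor PYL4 was lower in both transcripts (212 and 37 after, 826 and 78 during).

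Auxin genes were higher for 9 of 28 and lower for 5 (median 0.37). ARF5, the factor also named MONOPTEROS, had 1820 after and 219 during secretion, and GH3.6, which conjugates auxin, 175 after and 35 during. IAA19 (16 after, 58 during), LAX3 (134 after, 407 during) and PIN6 were lower. Among gibberellin genes 5 of 9 were higher and none lower (median 1.54). The receptor GID1B had 417 after and 10 during, against GID1C with 613 after and 592 during, and the DELLA repressor RGA was higher in both transcripts (774 and 150 after, 230 and 51 during). All 3 cytokinin transcripts measured were type-A response regulators, and all were lower: ARR6 (10 after, 76 during), ARR7 (23 after, 69 during) and ARR9 (81 after, 331 during).

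Water channels were higher for 14 of 24 transcripts and lower for 4 (median 1.403), with sums of 66896 after and 29918 during secretion. The plasma membrane aquaporins PIP1-2 (LOC103866253; 28988 after, 10941 during) and PIP1-1 (LOC103841965; 1836 after, 105 during) and the tonoplast ones TIP1-1 (LOC103865561; 1188 after, 77 during) and TIP4-1 (LOC103864690; 800 after, 31 during) were among the higher. Plasma membrane proton pumps, which energize uptake, were lower for AHA1 and for 1 of 2 transcripts matched to AHA2 (LOC103845176; 2141 after, 9560 during), while the other had 9809 after and 9022 during (LOC103852852). The vacuolar pyrophosphatase AVP1 was higher in its main transcript (9311 after, 3078 during). Subunits of the vacuolar proton ATPase were lower for 6 of 31 and higher for none (median -0.51, and 0.02 with columns scaled to the same total, where 1 was lower). Of 143 transcripts for vesicle traffic and exocytosis 4 were higher and 19 lower (median -0.44), against 6 higher and 2 lower with columns scaled to the same total (median 0.08). The deposited counts for traffic are 2.8% higher and 13.3% lower, beside 17.5% and 15% of all transcripts. For the vacuolar proton ATPase the share lower was 19.4%.

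Cell wall enzymes moved in both directions. Of 53 pectin-modifying enzymes 28 were higher and 13 lower (median 1.04). A pectinesterase, LOC103866866, had 9142 after and 25 during secretion, 352-fold higher, while the family member with the largest mean, LOC103840789, had 6731 after and 25494 during. Expansins, which loosen walls, were higher for 5 of 10 and lower for none, with EXPA15 (LOC103853964) at 7737 before, 15 during and 210 after secretion. Xyloglucan endotransglucosylases were higher for 5 of 14 and lower for 1, and the 2 with the highest values stayed within 2-fold (40343 after and 31695 during for LOC103861948, 38316 after and 25399 during for LOC103834679). In the floral abscission list 3 of 7 were higher and 1 lower, and HAESA, HAE, the receptor kinase that triggers organ shedding, had 10391 after and 2524 during secretion. Genes of cuticle and wax were lower for 7 of 14 and higher for 2, with the median at 2-fold lower. With columns scaled to the same total 5 were lower and 2 higher (median -0.52). The alkane-forming CER1 had 254 after and 1536 during, CER6 of fatty acid elongation 771 and 201 after and 2233 and 662 during, and the wax regulator SHN1 62 after and 387 during. Lipid transfer protein transcripts matched to LTP1 had 4018 and 460 after and 326 and 102 during for the 2 that were higher, and 2586 after and 3730 during for LOC103865674.

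Among transcription factor families, WRKY factors, which act in defence and ageing, were higher for 18 of 33 and lower for 3 (median 1.13). WRKY28 had 13609 after and 1459 during secretion and WRKY15 710 after and 26 during. NAC factors were higher for 15 of 40 and lower for 2 (median 0.40). MYB factors were higher for 17 of 49 and lower for 14, with MYB108 (LOC103866398), which acts in stamen maturation, at 419 after and 3 during, and with LOC103840557, annotated as MYB57 but matched to AT1G25340, at 2175 after and 64 during. bHLH factors were higher for 16 of 46 and lower for 10, and ethylene-responsive factors were higher for 13 of 38 and lower for 14. These 3 balances rest on the scaling, since with columns scaled to the same total MYB factors had 25 higher and 9 lower, bHLH factors 22 and 7, and ethylene-responsive factors 19 and 8. Of floral organ factors 10 of 13 lay within 2-fold, where 67.5% of all transcripts did. SHP2, a MADS-box factor of carpel and nectary, was lower (5753 after, 29798 during) and its partner gene SHP1 was not (1755 after, 2013 during). SEP3 was higher, with 299 after and 18 during, and SEP1 had 5249 after and 8790 during.

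Defence and secondary metabolism varied from gene to gene. Peroxidases of the secreted class were higher for 6 of 9 and lower for 2 (median 3.597), with peroxidase P7 (LOC103846887) at 6699 after and 43 during secretion. Cytochrome P450s were higher for 23 of 59 and lower for 16, from LOC103860541, an 81F1-like enzyme with 3161 after and 9 during, to LOC103866904, a 76C3-like one with 1940 after and 11101 during. NSP5, which steers glucosinolate breakdown to nitriles, had 10575 and 4207 after and 703 and 90 during, and the epithiospecifier ESP 17348 after and 27246 during in its main transcript. Another ESP transcript was lower, with 1358 after and 8340 during (-2.62). A hevein-like protein (LOC103859057) of the pathogen response had 1241 after and 2 during, and a chitinase-like protein (LOC103857749) 1048 after and 4 during. Of 4 phenylpropanoid and flavonoid transcripts 3 were lower and none higher. The phenylpropanoid entry enzyme PAL1 (2990 after, 20784 during) and chalcone synthase CHS (191 after, 2066 during), which starts flavonoid synthesis, were lower. Amino acid, peptide and nitrate carriers were higher for 25 of 57 and lower for 17 (median 0.65). Nitrate carriers of the NRT1/PTR family were among the lower, with 3962 after and 22740 during secretion for LOC103843153, annotated as member 6.3. Of 12 transcripts that answer touch and wounding 5 were higher and 2 lower (median 0.74), among them CML38, lower in both transcripts (36 and 34 after, 111 and 174 during).

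Of 36 circadian clock transcripts 7 were lower and none higher (median -0.32), against none lower and 1 higher with columns scaled to the same total (median 0.20). The 7 are 19.4% of the list, beside 15% of all transcripts that were lower. CCA1 had 1397 after and 1530 during secretion, and LHY 6621 and 671 after and 8844 and 702 during, and both are morning genes of the clock. PRR9, a later-morning gene, had 502 after and 1355 during, and GI, of the evening, 318 after and 482 during. PRR9 was within 2-fold with columns scaled to the same total (-0.91). Leaf, taken with the secretory stage, had 5553 for CCA1 and 98 for GI. Among light genes 5 of 15 were higher and 2 lower, with ELIP1, an early light-induced protein, at 2041 after and 509 during. The part of the hour in any of the differences above was not tested.

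Markers of other flower tissues were few. None of 8 tapetum and none of 6 carpel and ovule markers had a matched transcript here. Pollen markers had 4 transcripts, of which 3 were higher, and their summed values were 1123 before, 6110 during and 9677 after secretion, against 176 in leaf. VGD1, a pollen tube pectinesterase, had 2998 after in each of its transcripts and 1298 and 1436 during, AGP6 1273 after and 629 during, and ACA9 2408 after and 2747 during. The pectin-modifying family above includes the VGD1 transcripts, and the part of pollen in its count was not tested. Vascular markers summed to 251 after and 100 during secretion and to 5468 in leaf. Guard cell markers had 2 transcripts, KAT1 (27 after, 113 during) and GC1 (130 after, 138 during).

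The same step in lateral nectaries shares no library with the median one. There, 3445 transcripts (23.9%) were higher and 2655 (18.5%) lower in post-secretory than in secretory nectaries, with a median of 0.06. The header of the lateral post-secretory column lacks the mark of the other columns. Its 75th percentile was 476, where the others ran from 450 to 543.75, and its median was 192, where the others ran from 168 to 182. Beyond these values the match of its scale with theirs was not tested. Of the higher transcripts 1746 were shared, 69.4% of the median and 50.7% of the lateral ones, and of the lower 1245, 57.6% of the median and 46.9% of the lateral ones. In opposite directions went 81 transcripts higher in median and lower in lateral nectaries and 76 the other way round.

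Several values differed in size between the gland types. CWINV4 had 730 after and 147338 during secretion in lateral glands, and SWEET9 6606 after and 147160 during, so that the lateral differences of -7.66 and -4.48 compare with -3.47 and -1.41 in median glands. Values after secretion for the marker SAG12 were 10991 in median and 240 in lateral glands, and those for CEP1 were 34470 and 5865. As a list, senescence genes were higher for 7 of 9 in both gland types, with medians of 4.80 (median glands) and 5.03 (lateral glands). Cell death genes were higher for 6 of 8 in median and 5 in lateral glands, and cytosolic ribosomal proteins for 209 and 227 of 237. All 13 small heat shock proteins were lower in both gland types. Photosynthesis was lower for 34 of 79 transcripts in median and for 11 in lateral glands, where 8 were higher. Organellar ribosomal proteins were higher for 7 of 76 in median and for 52 in lateral glands, autophagy genes for 7 of 23 in median and for 2 in lateral ones, and the clock list was lower for 7 of 36 in median and for 25 in lateral ones. Over all transcripts 17.5% were higher and 15% lower in median glands, and 23.9% and 18.5% in lateral ones. In median glands, scaling columns to the same total gave 9 lower for photosynthesis and none lower for the clock list. It gave 15 higher for organellar ribosomal proteins and 14 higher for autophagy genes. Lateral counts with that scaling are not given here. With 1 value per group, none of the differences between gland types could be tested.

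**Figure D5:**
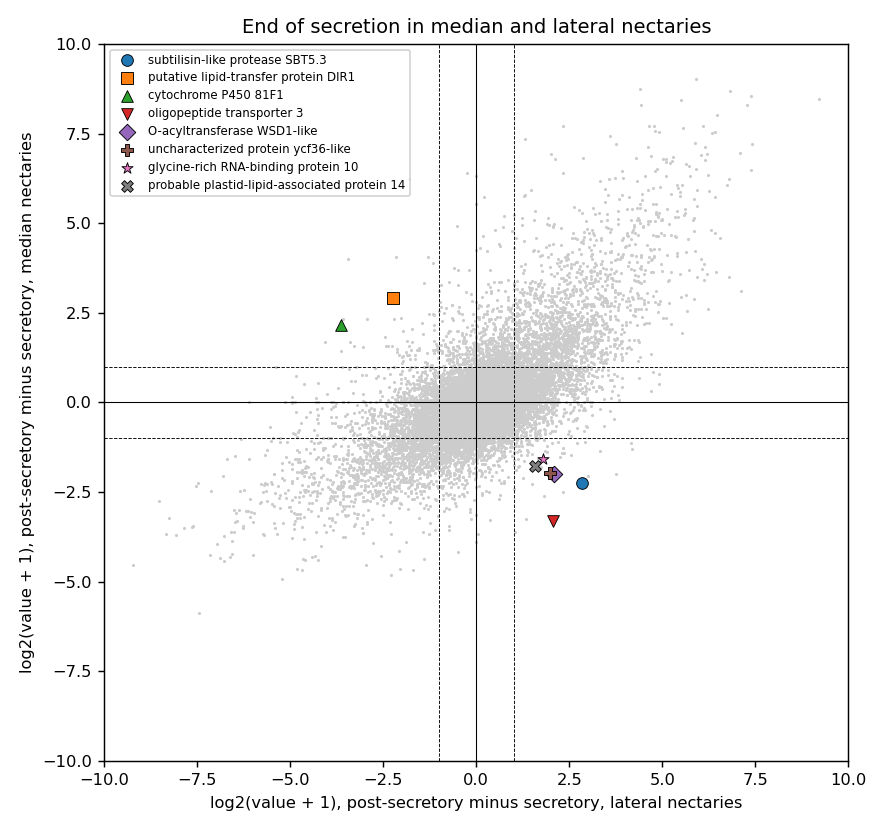
Post-secretory minus secretory log2(value + 1) for each transcript in median (vertical axis) and lateral (horizontal axis) nectaries, with dashed lines at 2-fold. Coloured symbols mark the 8 of 39 opposite transcripts, with at least 200 in the higher group of both nectary types, that rank first by the smaller of their differences, such as the oligopeptide transporter 3 (LOC103849516) at -3.31 in median and 2.06 in lateral nectaries.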

How the data were processed

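The series holds 21 RNA sequencing libraries of total RNA made with a TruSeq RNA kit and read as 50 bp pairs, and samples were grouped by the stage and nectary type in their labels. The authors deposited 1 table of 14398 Brassica rapa transcripts with 1 value for each of 7 groups. Per the file headers these are scores marked UQN, taken here as upper-quartile normalized and rounded values, which the sources used here do not spell out. The sources used here do not give the aligner, the genome build or how the 3 libraries of a group became 1 value. Depth per library is unknown, so no interval could be given.

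From the deposited scores, log2 differences of value + 1 were computed in Python 3.11.15 with pandas 2.3.3 and numpy 2.4.6, and figures were drawn with matplotlib 3.10.9. A transcript was kept if 3 or more groups reached a value of 1, which left out 8. Calls were made at 2-fold, without a test, and the calculation was tested on simulated data. An Arabidopsis match, given for 9605 transcripts, or the product name placed transcripts in 70 gene lists. 8 more lists were added after values were seen. Named transcripts were the 12 largest differences each way with at least 200 in the higher group, the 10 highest values of each stage, up to 4 members per list with the largest difference plus the largest mean, all copies of the central nectar and clock genes, and up to 8 with opposite differences in lateral glands. A few others were named after their values were seen. The comparison, the members and the lists were chosen with earlier results of these data known. Alternatives were other pseudocounts, filters, scalings and thresholds.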

Additional observations from a re-analysis of the deposited data

Results flagged for a closer look

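Among the transcripts whose single values went opposite ways in median and lateral nectaries between the post-secretory and the secretory stage, at least 2-fold in each, 39 had at least 200 in the higher group of both. The 8 given here rank first by the smaller of their differences in the 2 nectary types. These differences were not tested, since each group has 1 value.

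Of the 8, 6 were lower in median and higher in lateral glands after secretion. The oligopeptide transporter 3 (LOC103849516), an iron and copper carrier in Arabidopsis, had 771 after and 7641 during secretion in median nectaries (-3.31), and 1775 after and 426 during in lateral ones (2.06). LOC103839651, annotated as the subtilisin-like protease SBT5.3 and matched to AT5G45650, had 1727 after and 8266 during in median nectaries (-2.26). In lateral ones it had 1898 after and 266 during (2.83). A WSD1-like acyltransferase (LOC103857833), of a family that makes wax esters, differed by -2.00 in median nectaries (2498 after, 9971 during) and by 2.08 in lateral ones. The differences of the ycf36-like protein LOC103837752 were -1.98 in median and 1.97 in lateral nectaries. For the plastid-lipid-associated protein 14 (LOC103844821) they were -1.78 and 1.57, and for the glycine-rich RNA-binding protein 10 (LOC103835157) -1.59 and 1.80.

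The other 2 were higher in median and lower in lateral nectaries. The lipid transfer protein DIR1 (LOC103856989), a carrier of systemic defence signals, had 2586 after and 343 during in median nectaries (2.91), and 1322 after and 6294 during in lateral ones (-2.25). LOC103860817, annotated as cytochrome P450 81F1 and matched to AT4G37400, had 593 after and 131 during in median nectaries (2.17). In lateral ones it had 492 after and 6110 during (-3.63).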

How the results depend on the processing

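No paired analysis was possible because each group has 1 pooled value and the columns carry no replicate number, and for the same reason leaving out each replicate could not be run. The counts of transcripts higher and lower after secretion in median nectaries, and of those higher and lower in both nectary types, stayed within 1.5 times their values (2516, 2161, 1746 and 1245) with a pseudocount of 0.1 or 10, without the filter, with a minimum of 50, with quantiles, with centring on the median and with 1 transcript per gene. With columns scaled to the same total they were 4048, 1063, 3046 and 641. At 4-fold they were 1084, 553, 726 and 368. Same-total scaling without LOC103828338 was chosen after seeing the data, and gave 1350 lower in median nectaries and 719 lower in both types. No named transcript at least 2-fold apart changed sign under any alternative run. Of 355 named transcripts, 62 moved by over 1.5 times with a pseudocount of 10, 11 with 0.1 and 22 with quantiles, and the aspartic protease LOC103839838, at 2 during secretion, had 5.74 with a pseudocount of 10 in place of 7.72. No longer 2-fold apart were 24 with the same total and 8 with quantiles, among them SWEET9 in both. The cause was not tested. Motif shares of promoters were not run. Depth per library is unknown, which limits what low values can show.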

Other observations

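Several gene groups were listed after their values were seen, and their counts are descriptions only. Transcripts for the mitochondrial respiratory chain and ATP synthase, which make ATP in the cell, were lower for 61 of 93 after secretion in median nectaries and higher for none (median -1.13), with sums of 36849 after and 87736 during secretion. With columns scaled to the same total 17 were lower. In lateral nectaries 18 were lower and 1 higher. Glycolysis, which breaks down hexose, had 17 of 37 transcripts lower and 1 higher, with sums of 27319 after and 112288 during. Protein disulfide isomerases, which fold proteins of the secretory pathway, were lower for 8 of 17. Of 8 transcripts whose Arabidopsis match lies on a plastid or mitochondrial genome 6 were lower, and their sums were 3343 before, 53652 during and 4693 after secretion.

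Nucleolar proteins, which build ribosomes, were higher for 11 of 15 and lower for 1 (median 1.74), beside the ribosomal proteins described above. WAT1-related carriers, some of which move auxin out of the vacuole, were higher for 11 of 16 and lower for 1 (median 1.96). Carriers like ERD6, which move sugars across the vacuole membrane, were higher for 5 of 10 and lower for none, with LOC103870826 at 4803 after and 22 during secretion. ACC oxidases taken by product name, a list that includes ACO1 named above, were higher for 7 of 13 and lower for 1 (median 1.34).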
